A study of Mus musculus with 8 samples.

Results

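The unfolded protein and integrated stress response genes followed here are 9 genes that the deposited tables list by symbol: Atf4, Ddit3, Xbp1, Hspa5, Hsp90b1, Trib3, Asns, Sesn2 and Herpud1. They are 9 of the 18846 gene symbols in the tables, each taken as the sum of its RefSeq transcripts, and all 9 passed the filter on low counts. RNA was sequenced from 8 mouse adrenal glands, 1 gland per animal and library, in 4 groups of 2 animals with the strain label 129SVEV. The groups were Siah1a-/- given adrenocorticotropic hormone (ACTH), wild type given ACTH, untreated Siah1a-/- and untreated wild type, each with 1 animal labelled male and 1 labelled female. ACTH, the pituitary hormone that drives steroid synthesis in the adrenal cortex, was injected into the peritoneum at 100 µg/kg 1 hour before harvest, and the labels describe the other animals as not treated, with no vehicle injection. Siah1a encodes a RING-type E3 ubiquitin ligase, and which part of the gene the knockout removes, the animals' ages and whether it affects every tissue are not given in the sources used here.

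Proteins destined for secretion or for membranes fold in the endoplasmic reticulum (ER), and unfolded protein there is sensed by IRE1, PERK and ATF6. IRE1 cuts a short stretch out of the Xbp1 messenger RNA, which shifts its reading frame and yields the active transcription factor, while ATF6 is released as a factor that drives chaperone genes. PERK, like the kinases that sense amino acid shortage, haem shortage and double-stranded RNA, phosphorylates the initiation factor eIF2α, which lowers translation in general and raises that of ATF4, the integrated stress response. Adrenocortical cells are rich in smooth ER, where part of steroid synthesis takes place. In cultured cells, ATF4 and spliced XBP1 are known to raise transcription of the Siah genes, and SIAH proteins act on prolyl hydroxylases that limit ATF4.

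A sequence that may separate the forms of Xbp1, and the promoters in which known stress elements were found, are shown first. The tables list a longer and a shorter Xbp1 transcript, and the lengths recovered from their counts and RPKM values (reads per kilobase of transcript, scaled to the size of the library), 2247 and 2221 bases, differ by 26 bases. The tables hold no sequence for either, so that the stretch below is what separates them is inferred from this length difference. In the GENCODE transcript of Xbp1, the 26 bases between a pair of matches to CNGCAG lie in exon 4 at chr11:5524279-5524304 (GRCm38, plus strand). Removing them changes the open reading frame to 371 codons, against 267 codons with them. The same search found a further stretch in exon 1, whose removal leaves 73 codons. The 26 bases are in capitals here, with 30 bases on either side, above the same sequence joined without them.
Xbp1 with the stretch: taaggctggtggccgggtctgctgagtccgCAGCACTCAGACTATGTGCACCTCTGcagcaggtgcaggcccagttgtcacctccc
Xbp1 without the stretch: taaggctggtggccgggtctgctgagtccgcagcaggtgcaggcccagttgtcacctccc

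For the promoters, the 250 bases before each gene's start in RefSeq (GRCm38.p6) were searched on both strands, and 4 of the 9 genes held a match. The ER stress response element, CCAAT and CCACG set 9 bases apart, was found in Hspa5 and Hsp90b1 and in 0.113% of the 32851 windows of this length. Its second form, ATTGG and CCACG set 1 base apart, was found in Herpud1 and in 0.0304% of windows. The C/EBP-ATF response element, TGATGNAAN, to which ATF4 binds with C/EBP partners, was found in Asns and Herpud1 and in 3.44% of windows. The 8-base core TGACGTGG, bound by ATF6 and XBP1, matched 0.563% of windows and 0 of the 9. A match describes these letters in these windows and is not a measurement of binding. The Hspa5 window is chr2:34771840-34772089 (plus strand), that of Hsp90b1 chr10:86705445-86705694 (minus strand), that of Herpud1 chr8:94386179-94386428 (plus strand) and that of Asns chr6:7693210-7693459 (minus strand). Each is printed along its gene's own strand with the matches in capitals. In Hspa5 the element spans 65 to 47 bases before the start. Hsp90b1 holds it at 212 to 194 bases and, on the other strand, at 107 to 89 bases. The match of Asns lies at 23 to 15 bases, and Herpud1 holds the C/EBP-ATF match on the other strand at 113 to 105 bases and the second ER stress form at 52 to 42 bases.
Hspa5: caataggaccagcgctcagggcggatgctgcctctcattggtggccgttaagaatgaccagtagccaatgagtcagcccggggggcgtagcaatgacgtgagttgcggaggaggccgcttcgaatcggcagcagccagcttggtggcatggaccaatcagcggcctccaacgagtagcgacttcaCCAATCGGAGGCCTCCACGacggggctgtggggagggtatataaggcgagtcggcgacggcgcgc
Hsp90b1: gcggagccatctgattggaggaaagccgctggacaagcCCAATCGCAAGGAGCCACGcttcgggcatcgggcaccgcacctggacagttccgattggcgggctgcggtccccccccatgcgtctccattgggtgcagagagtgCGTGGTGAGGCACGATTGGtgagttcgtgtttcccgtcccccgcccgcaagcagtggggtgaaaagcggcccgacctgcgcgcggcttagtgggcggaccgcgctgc
Herpud1: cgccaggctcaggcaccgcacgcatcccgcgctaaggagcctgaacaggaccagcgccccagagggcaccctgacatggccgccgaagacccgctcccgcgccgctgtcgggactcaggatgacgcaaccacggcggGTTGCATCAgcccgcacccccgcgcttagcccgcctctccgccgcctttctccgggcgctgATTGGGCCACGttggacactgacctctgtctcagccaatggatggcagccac
Asns: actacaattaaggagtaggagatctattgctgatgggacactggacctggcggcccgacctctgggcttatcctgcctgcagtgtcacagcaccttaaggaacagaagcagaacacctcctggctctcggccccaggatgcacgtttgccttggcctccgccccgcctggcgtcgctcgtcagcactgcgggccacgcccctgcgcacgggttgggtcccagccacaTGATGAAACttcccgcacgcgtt

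Several facts of the libraries touch the values that follow, which are given in CPM, counts scaled to a common library size after filtering and TMM normalization, with the animal labelled male first in each pair. The tables held 8020111 to 29568950 estimated counts per library, and the 9 genes had between 18 counts (Trib3) and 47266 counts (Hsp90b1) in a library. Siah1a was at 19.0 and 17.4 CPM in the ACTH-treated Siah1a-/- glands, 33.1 and 32.4 CPM in wild-type glands after ACTH, 25.2 and 21.2 CPM in untreated Siah1a-/- glands and 26.3 and 26.1 CPM in untreated wild-type glands. All 4 Siah1a-/- libraries lay below all 4 wild-type libraries, by a narrow gap between untreated glands, 25.2 against 26.1 CPM. The share of all genes that do so is not given. The difference did not pass the test (log2 fold change -0.52, SE 0.23, edgeR adjusted p = 0.383), and part of these reads may belong to the near-identical Siah1b. Among the untreated wild-type libraries, the one labelled male held the kidney transcripts Umod at 241 CPM and Slc34a1 at 600.4 CPM, against at most 2.52 and 0.493 CPM in the other libraries. It also had Xist at 388 CPM and Ddx3y at 3.06 CPM, against 4.05 to 31.9 and 311 to 376 CPM in the other 3 libraries with a male label. Both values lay within the ranges of the libraries labelled female, 253 to 761 CPM for Xist and 0.0 to 13.25 CPM for Ddx3y. The fits kept its male label, so the sex term may be wrong for this library. The liver transcript Alb reached 34060.0 CPM in the wild-type library labelled ACTH-treated female, against at most 358 CPM elsewhere. Fold changes of the 9 genes in the genotype and ACTH averages are given with and without this pair of libraries, which are both wild type. Leaving them out keeps a single wild-type library per treatment, labelled female without ACTH and male after it. Within wild type, treatment and sex label then cannot be told apart. The summed 7 adrenal cortex markers reached 38360.0 to 51210.0 CPM in Siah1a-/- glands and 26960.0 to 45420.0 CPM in wild-type glands, so the labelled tissue was present throughout.

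Since CPM is not scaled by transcript length, levels of different genes are compared in RPKM. In RPKM averaged over the 8 libraries, the ER chaperones stood highest, Hsp90b1 at 579 and Hspa5 at 456, with ranges that overlapped (426 to 786 and 327 to 621). Atf4 followed at 179.8 (126 to 295) and overlapped neither Hspa5 above it nor Xbp1 below it. Xbp1 at 73.3, Herpud1 at 47.5, Asns at 31.1 and Ddit3 at 17.4 RPKM each overlapped with the next. Sesn2 at 3.93 and Trib3 at 1.52 RPKM were the lowest, and their ranges (2.22 to 6.26 and 0.575 to 2.78) overlapped each other but not that of Ddit3. The plot of levels by group shows every library.

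**Figure D1:**
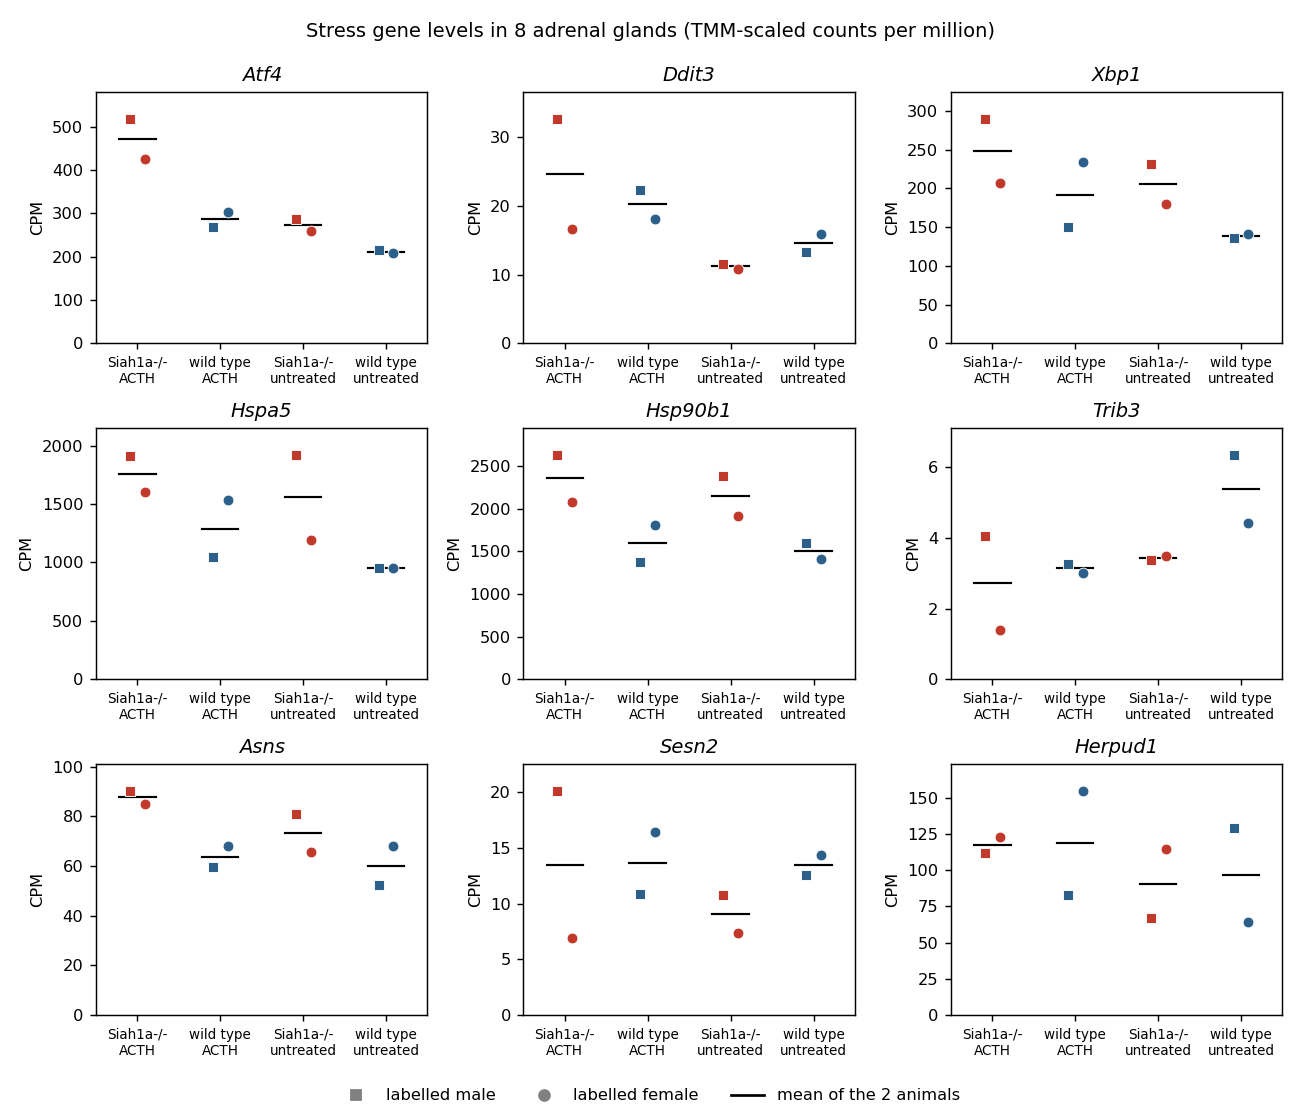
Level of each of the 9 genes in TMM-scaled CPM (y axis, from 0) in the 4 groups of 2 animals (x axis). Squares are animals labelled male, circles animals labelled female, red Siah1a-/-, blue wild type, and the line is the mean of 2 animals. Atf4 is highest in both ACTH-treated Siah1a-/- glands, at 517 and 424 CPM, while Herpud1 differs as much within groups as between them.

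Averaged over treatment, the chaperone genes Hspa5 and Hsp90b1 and the transcription factors Atf4 and Xbp1 were 1.38 to 1.48 times as high in Siah1a-/- as in wild-type glands, and 0 of the 9 genes passed an adjusted p of 0.05 in edgeR's quasi-likelihood test. Over all 15361 genes tested, 4 genes, or 0.026%, passed. At an unadjusted p under 0.05, those 4 members were higher in Siah1a-/- and 0 were lower, to be read against the 5.33% of all genes that were higher and the 8.11% that were lower at that threshold. DESeq2 called 2 of the 9, Atf4 (adjusted p = 0.0181) and Hsp90b1 (adjusted p = 0.0218), where it called 932 genes in all, and limma-voom called 0 of the 9. In bulk glands, fewer cells of a type and less RNA per cell cannot be told apart.

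Atf4, the transcription factor at the centre of the integrated stress response, stood at 517 and 424 CPM in ACTH-treated Siah1a-/- glands, against 268 and 303 CPM in ACTH-treated wild-type glands. Untreated Siah1a-/- glands held 286 and 259 CPM, against 214 and 208 CPM in untreated wild-type glands. The genotypes did not overlap within either treatment, although the untreated Siah1a-/- glands reached no higher than the ACTH-treated wild-type gland labelled female. The means over treatments were 372 ± 121 CPM in Siah1a-/- and 248 ± 45.4 CPM in wild type (SD, n = 4 each). The log2 fold change was 0.54 (SE 0.15, edgeR adjusted p = 0.196), and it was 0.59 without the 2 wild-type libraries with kidney or liver transcripts. Much of the regulation of ATF4 is known to act on its translation, which RNA levels do not measure.

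Xbp1, whose spliced form activates genes of ER folding and degradation, was at 289.5 and 206 CPM in ACTH-treated Siah1a-/- glands, against 149.6 and 234 CPM in ACTH-treated wild-type glands. In untreated glands it was at 232 and 180.4 CPM in Siah1a-/- and at 135 and 142 CPM in wild type. The ACTH-treated wild-type gland labelled female, the one with liver transcripts, lay inside the range of the Siah1a-/- glands, and the other 3 wild-type libraries lay below all 4 of them. The log2 fold change was 0.47 (SE 0.20, edgeR adjusted p = 0.371) and was 0.62 without the 2 libraries.

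Ddit3 encodes CHOP, a factor induced downstream of ATF4 and linked to cell death under lasting stress. It was at 32.7 and 16.7 CPM in ACTH-treated Siah1a-/- glands, against 22.4 and 18.1 CPM in ACTH-treated wild-type glands, and at 11.6 and 10.8 CPM in untreated Siah1a-/- glands, against 13.3 and 15.9 CPM in untreated wild-type glands. After ACTH the Siah1a-/- pair spanned the wild-type pair, and without ACTH it lay below it. The averages were 17.9 ± 10.1 CPM in Siah1a-/- and 17.4 ± 3.84 CPM in wild type (SD, n = 4 each). The fitted log2 fold change was -0.07 (SE 0.31), opposite in sign to the difference of these averages. It changed sign in 5 of 17 alternatives and was -0.22 without the 2 wild-type libraries with kidney or liver transcripts, so Ddit3 is given no direction by genotype.

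Among the chaperones, Hsp90b1 (GRP94, the HSP90 protein of the ER) was the single member of the 9 whose 4 Siah1a-/- libraries all lay above all 4 wild-type libraries, which 4.21% of all genes tested did. Its levels were 2628 and 2080.3 CPM in ACTH-treated and 2381 and 1909 CPM in untreated Siah1a-/- glands. Wild-type glands held 1376 and 1806 CPM after ACTH and 1596 and 1407 CPM without it. The smallest gap was narrow, between the untreated Siah1a-/- gland labelled female and the ACTH-treated wild-type gland labelled female. The log2 fold change was 0.53 (SE 0.16, edgeR adjusted p = 0.232), and it was 0.68 without the 2 wild-type libraries.

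Hspa5 (BiP, the main HSP70 chaperone of the ER, which also holds the stress sensors inactive) had 1914 and 1601 CPM in ACTH-treated Siah1a-/- glands, against 1048 and 1533 CPM in ACTH-treated wild-type glands. Without treatment the values were 1921 and 1192 CPM in Siah1a-/- and 952 and 954 CPM in wild type. The genotypes did not overlap within a treatment, which also held for Atf4 and Hsp90b1 and for 6.82% of all genes tested, but over the 8 libraries the untreated Siah1a-/- gland labelled female lay between the 2 ACTH-treated wild-type glands. The log2 fold change was 0.56 (SE 0.21, edgeR adjusted p = 0.301) and was 0.71 without the 2 libraries.

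The known targets of ATF4 had fold changes of both signs. Asns, asparagine synthetase and a textbook ATF4 target, was at 90.3 and 85.0 CPM in ACTH-treated Siah1a-/- glands, against 59.7 and 67.9 CPM in ACTH-treated wild-type glands, and at 80.8 and 65.5 CPM in untreated Siah1a-/- glands, against 52.5 and 67.9 CPM in untreated wild-type glands. The untreated glands overlapped and the ACTH-treated glands did not, and how many of all genes do the same was not counted. After ACTH the log2 fold change of Asns by genotype was 0.46 (SE 0.25, edgeR adjusted p = 0.694). The difference between the genotypes' ACTH effects was 0.17 (SE 0.35). Averaged over treatment, its log2 fold change by genotype was 0.37 (SE 0.16, edgeR adjusted p = 0.375), and 0.33 without the 2 libraries.

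Trib3, a pseudokinase that dampens AKT and ATF4 signalling, was scarce, at 4.06 and 1.38 CPM in ACTH-treated Siah1a-/- glands, against 3.27 and 3.02 CPM in ACTH-treated wild-type glands. Untreated glands held 3.39 and 3.49 CPM in Siah1a-/- and 6.35 and 4.43 CPM in wild type. The 2 highest libraries were the untreated wild-type ones, and the log2 fold change of -0.46 (-0.36 without the 2 libraries) was smaller than its standard error of 0.64. Sesn2, a sestrin that restrains mTORC1 and supports antioxidant defence, was at 20.1 and 6.90 CPM in ACTH-treated Siah1a-/- glands, against 10.9 and 16.5 CPM in ACTH-treated wild-type glands, and at 10.8 and 7.39 CPM in untreated Siah1a-/- glands, against 12.6 and 14.4 CPM in untreated wild-type glands. A single Siah1a-/- gland held the highest value of Sesn2 while its partner held the lowest, and the log2 fold change was -0.37 (SE 0.43; -0.31 without the 2 libraries).

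Herpud1 is a membrane protein that organises ER-associated degradation. It was at 112 and 122 CPM in ACTH-treated Siah1a-/- glands, against 82.8 and 155 CPM in ACTH-treated wild-type glands, and at 67.0 and 114 CPM in untreated Siah1a-/- glands, against 129 and 64.3 CPM in untreated wild-type glands. Wild type held both its highest and its lowest value. The log2 fold change was -0.07 (SE 0.29), and without the 2 libraries with kidney or liver transcripts it was 0.48 (edgeR adjusted p = 0.691). With both kept it was also above 0 with limma-voom (0.056) and without the untreated Siah1a-/- gland labelled male (0.067), so Herpud1 is given no direction by genotype. The plot of fold changes sets the 9 genes side by side.

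**Figure D2:**
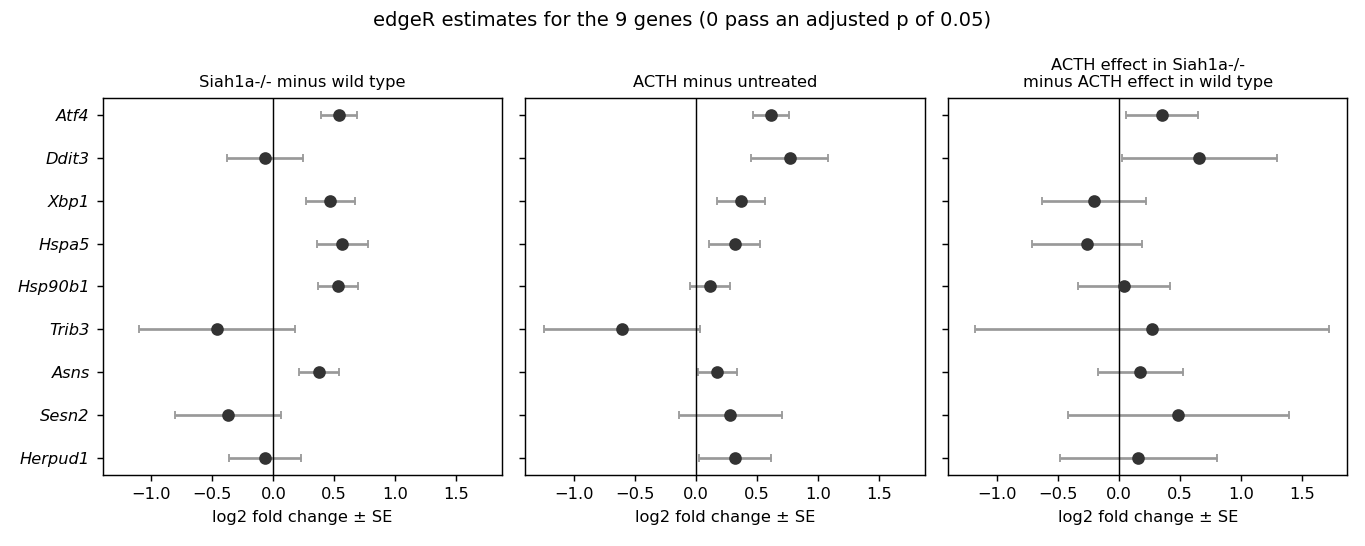
log2 fold change with its standard error (x axis) of each gene (rows) in edgeR's fit of all 8 libraries. The left panel is Siah1a-/- minus wild type, the middle panel ACTH minus untreated, and the right panel the difference between the ACTH effects of the genotypes. Hspa5, Atf4, Hsp90b1 and Xbp1 lie at 0.47 to 0.56 in the left panel, and 0 of 9 genes pass an adjusted p of 0.05 in any panel.

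Split by treatment, 0 of 9 passed in either comparison of genotypes. In untreated glands 0 of 9 reached an unadjusted p under 0.05, where 0.0% of all genes tested passed the adjusted and 4.84% the unadjusted threshold. The largest difference there was Hspa5, with a log2 fold change of 0.70 (SE 0.32, edgeR adjusted p = 0.892). After ACTH, where 0.00651% of genes passed, it was Atf4, with 0.71 (SE 0.21, edgeR adjusted p = 0.520), and Atf4 was the single member with an unadjusted p under 0.05, where 2.81% of all genes were higher. DESeq2 called 1 member after ACTH and 0 in untreated glands.

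ACTH treatment was accompanied by higher Atf4 and Ddit3 in both genotypes. Of the 9 genes, 0 passed the adjusted threshold in edgeR, which 3 of all 15361 genes (0.0195%) did. Because the untreated animals had no injection, hormone and injection cannot be told apart in any ACTH comparison. Atf4 averaged 378 ± 114 CPM after ACTH and 242 ± 37.1 CPM in untreated glands, and Ddit3 22.4 ± 7.22 CPM after ACTH and 12.9 ± 2.26 CPM in untreated glands (SD, n = 4 each). For Ddit3 all 4 ACTH-treated libraries lay above all 4 untreated ones, as for 2.1% of all genes. The smallest gap was narrow, from 16.7 CPM in the ACTH-treated Siah1a-/- gland to 15.9 CPM in the untreated wild-type gland, both labelled female. For Atf4 and Ddit3 the treatments did not overlap within either genotype, as for 4.36% of all genes. The log2 fold changes were 0.61 for Atf4 (SE 0.15, edgeR adjusted p = 0.631) and 0.77 for Ddit3 (SE 0.32, edgeR adjusted p = 0.786). Without the 2 wild-type libraries they were 0.63 and 0.80. These 2 were the members higher at an unadjusted p under 0.05, where 3.49% of all genes were. DESeq2 called Atf4 alone of the 9 (adjusted p = 0.0240), among 123 genes.

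None of the other 7 genes reached an unadjusted p under 0.05 between ACTH-treated and untreated glands in edgeR. Xbp1 averaged 219.8 ± 58.2 CPM after ACTH and 172 ± 44.4 CPM in untreated glands, and Hspa5 1524 ± 358 CPM after ACTH and 1255 ± 458 CPM in untreated glands (SD, n = 4 each). Their log2 fold changes of 0.37 and 0.31 fell to 0.11 and 0.07 without the 2 wild-type libraries, 1 of which is the ACTH-treated one with liver transcripts. Hsp90b1 differed by 0.11, Asns by 0.17, Sesn2 by 0.28, Herpud1 by 0.31 and Trib3 by -0.61 on the log2 scale, with edgeR adjusted p-values of 0.925 to 0.952. Without the 2 libraries these were 0.0096 for Hsp90b1, 0.10 for Asns, -0.018 for Sesn2, 0.51 for Herpud1 and -0.67 for Trib3.

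Within Siah1a-/-, where 0.0% of genes passed the adjusted threshold, ACTH against untreated gave log2 fold changes of 1.10 for Ddit3 (SE 0.46) and 0.79 for Atf4 (SE 0.21), the 2 members with an unadjusted p under 0.05, where 1.96% of all genes were higher. Within wild type, where 0.0% passed as well, the values were 0.44 for Ddit3 (SE 0.45) and 0.44 for Atf4 (SE 0.21), and 0 of 9 reached that threshold, against 2.56% of all genes. The difference between the genotypes' ACTH effects was 0.66 for Ddit3 (SE 0.63) and 0.35 for Atf4 (SE 0.29), and edgeR's adjusted p for this difference was 1.0 for all 9 genes. Here 0.0% of all genes passed, 0 of 9 had an unadjusted p under 0.05 against 1.84% of all genes, and DESeq2 called 0 of 9. The differences for Xbp1 (-0.20) and Hspa5 (-0.26) took the opposite sign without the 2 wild-type libraries, at 0.60 and 0.55. The wild-type ACTH effect then rests on a single library of each treatment, with unlike sex labels.

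The share of the shorter Xbp1 form was read beside the total of the gene, and it passed no test by genotype or by ACTH. The shorter form made up 16.9% and 14.3% of Xbp1 counts in ACTH-treated Siah1a-/- glands, against 31.4% and 35.6% in ACTH-treated wild-type glands. In untreated glands it made up 24.8% and 17.2% in Siah1a-/- and 17.4% and 23.8% in wild type. After ACTH both wild-type glands lay above every other library and both Siah1a-/- glands below, while the untreated genotypes overlapped. The higher of these wild-type glands is the one with liver transcripts. The 16.9% of the Siah1a-/- gland labelled male was not separated by counting error from the 17.2% and 17.4% of 2 untreated libraries. Over both treatments the share averaged 18.3% ± 4.48 in Siah1a-/- and 27.1% ± 8.08 in wild type (SD, n = 4 each). The difference of -8.75 percentage points had an exact two-sided permutation p of 0.143, or 0.572 after Benjamini-Hochberg adjustment over 8 such tests, where 4 against 4 cannot give less than 0.0286. Without the 2 wild-type libraries it was -9.29 points.

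Between ACTH-treated and untreated glands the share of the shorter form differed by -5.38 points in Siah1a-/- (15.6% with ACTH, 21.0% untreated) and by 12.9 points in wild type (33.5% with ACTH, 20.6% untreated). Averaged over genotypes, the share differed by 3.76 points between ACTH-treated and untreated glands (exact two-sided permutation p = 0.543, adjusted 1.0), and by -1.07 points without the 2 wild-type libraries. The 95% Wilson intervals after ACTH were 15.8% to 18.1% and 13.05% to 15.7% in Siah1a-/- glands and 29.9% to 32.9% and 34.4% to 36.8% in wild-type glands. They were 15.7% to 18.9% in the untreated Siah1a-/- gland labelled female and 15.3% to 19.7% in the untreated wild-type gland labelled male. These intervals cover no difference between animals, and they take each estimated count as an assigned read. Yet single reads of 75 bases can tell the forms apart only near the bases that differ. The other reads were divided between the forms by the authors' estimate.

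In CPM, the longer form was at 241 and 177 in ACTH-treated Siah1a-/- glands, 103 and 150.4 in ACTH-treated wild-type glands, 174 and 149 in untreated Siah1a-/- glands and 112 and 108 in untreated wild-type glands. It averaged 185 ± 38.9 CPM in Siah1a-/- and 118 ± 21.8 CPM in wild type (SD, n = 4 each), and a single pair of libraries, the untreated Siah1a-/- and the ACTH-treated wild-type glands labelled female, kept the genotypes from separating. The shorter form was at 48.9 and 29.6 CPM in ACTH-treated Siah1a-/- glands, 46.9 and 83.2 CPM in ACTH-treated wild-type glands, 57.4 and 31.1 CPM in untreated Siah1a-/- glands and 23.6 and 33.8 CPM in untreated wild-type glands. Its averages of 41.8 ± 13.6 CPM in Siah1a-/- and 46.9 ± 26.1 CPM in wild type (SD, n = 4 each) lay within each other's spread. Tested alone in edgeR, the longer form had a log2 fold change of 0.63 between Siah1a-/- and wild type (adjusted p = 0.263), which did not pass, and the shorter form was not tested alone.

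**Figure D3:**
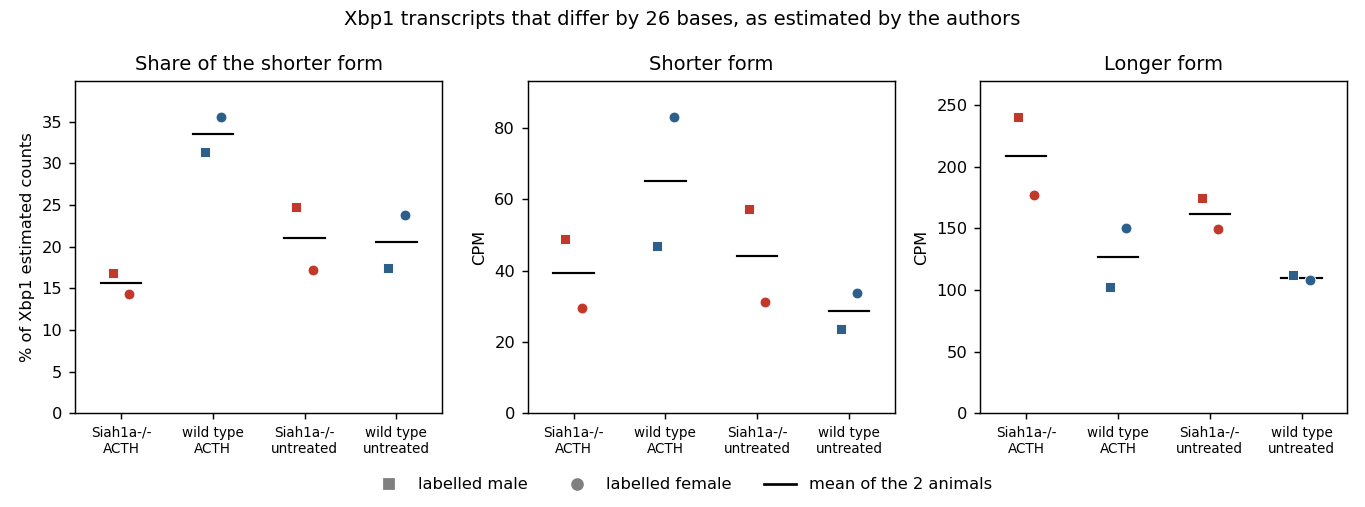
The shorter Xbp1 transcript as a percentage of Xbp1 estimated counts (left), and the levels of the shorter (middle) and longer (right) transcripts in TMM-scaled CPM, by group (x axis), each y axis from 0. Squares and circles are animals labelled male and female, red is Siah1a-/-, blue wild type, and lines are means of 2 animals. After ACTH the shorter form makes up 16.9% and 14.3% in Siah1a-/- and 31.4% and 35.6% in wild type.

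The other members with 2 listed transcripts were Atf4, Ddit3 and Hspa5, and the remaining 5 had 1 each. The minor transcript of Atf4 made up 0.0157% to 1.86% of its counts. For Ddit3 the estimate of the shorter transcript ran from 0.285% to 94.2% of counts, at 94.2% in 1 library of each genotype, and the Ddit3 levels given above are totals of both. The longer transcript of Hspa5 made up 20.9% ± 3.62 in Siah1a-/- and 24.6% ± 2.74 in wild type (SD, n = 4 each), with an exact two-sided permutation p of 0.143, or 0.572 adjusted over the 8 tests.

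Across the 8 libraries the levels of some members ran in parallel, which is given as a description, since the libraries share groups, scaling and tissue makeup. On log2 CPM, Pearson's r was 0.96 for Xbp1 with Hspa5, 0.92 for Hspa5 with Hsp90b1 and 0.89 for Xbp1 with Hsp90b1. Atf4 had r of 0.77 to 0.83 with these 3 genes and 0.82 with Asns. Ddit3, Trib3, Sesn2 and Herpud1 had no r above 0.64 with any other member, and Trib3 and Asns had -0.56. Among all genes tested, the most alike to Hspa5 was Hspa8, the constitutive HSP70 of the cytosol (r = 0.97), and the most alike to Asns was Serp1, which stabilises membrane proteins in the ER under stress (r = 0.99). The most alike to Atf4 was Chsy1, a chondroitin synthase (r = 0.97), and Xbp1 and Hsp90b1 both had Tax1bp1, an autophagy receptor, among their 3 most alike genes (r = 0.94 and 0.97). The scarce genes Trib3 and Sesn2 also reached 0.98 with their most alike genes. With 8 libraries and 15361 genes, a high r therefore does not single out a shared pathway, and not every most alike gene is named.

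The other genes of these pathways were read in 5 lists, in which 0 genes passed edgeR's adjusted threshold in the genotype or the ACTH average. ER chaperones and folding enzymes had a median log2 fold change of 0.24 between Siah1a-/- and wild-type glands, with 19 of 23 above 0, where all genes tested had a median of -0.04 and 46.5% above 0. Their 3 most abundant members were Calr (1046 ± 266 CPM in Siah1a-/-, 761 ± 145 CPM in wild type), Pdia3 (965 ± 126 CPM in Siah1a-/-, 735 ± 100.2 CPM in wild type) and Canx (859.9 ± 109 CPM in Siah1a-/-, 728 ± 85.2 CPM in wild type; SD, n = 4 each). Calreticulin and calnexin hold glycoproteins during folding, and Pdia3 is the disulfide isomerase that works with them. Of the 23, 5 were higher at an unadjusted p under 0.05 and 0 lower, where 5.33% of all genes tested were higher and 8.11% lower. ER-associated degradation had a median of 0.20, with 15 of 20 above 0, and at the same threshold 3 of 20 were higher and 1 lower, beside the same 5.33% and 8.11% of all genes. Among its most abundant members, the log2 fold change was 0.08 for Vcp, the ATPase that extracts proteins from the membrane, and 0.06 for the translocon protein Sec62.

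The sensors and regulators of the unfolded protein response (19 genes) had a median of 0.10 and the targets of the integrated stress response (35 of 36 listed were tested) a median of 0.06, and stress-induced cell death (8 genes) had -0.20. Among the sensors and regulators, Dnajc3, an inhibitor of PERK, had a log2 fold change of 0.13, Ppp1r15b, which guides the phosphatase of eIF2α, 0.18, and the Xbp1 ligase subunit Rtcb 0.10. Among integrated stress targets, the asparaginyl-tRNA synthetase Nars averaged 287 ± 10.7 CPM in Siah1a-/- and 218 ± 16.7 CPM in wild type (SD, n = 4 each; log2 fold change 0.40, edgeR adjusted p = 0.239), while Eprs and Slc3a2 differed by 0.01 and -0.20. Of these 35 targets, 6 were higher and 4 lower at an unadjusted p under 0.05, beside 5.33% and 8.11% of all genes. The death genes Bax and Bak1 differed by -0.03 and -0.08, and Bcl2l11, which encodes the BH3-only protein BIM, by -0.63 (SE 0.58).

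After ACTH against untreated, the median was 0.19 for the sensors and regulators, 0.15 for the integrated stress targets, -0.04 for the chaperones, -0.01 for ER-associated degradation and -0.09 for cell death, against 0.02 for all genes tested. The chaperones Calr and Pdia3 differed by 0.08 and -0.07 on the log2 scale, beside 0.31 for Hspa5 and 0.11 for Hsp90b1. Slc3a2, a subunit of amino acid transporters, and Eprs each differed by 0.41 and Ppp1r15b by 0.55, with edgeR adjusted p-values of 0.719 to 0.758. The plot of the lists shows the spread of single genes around these medians.

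**Figure D4:**
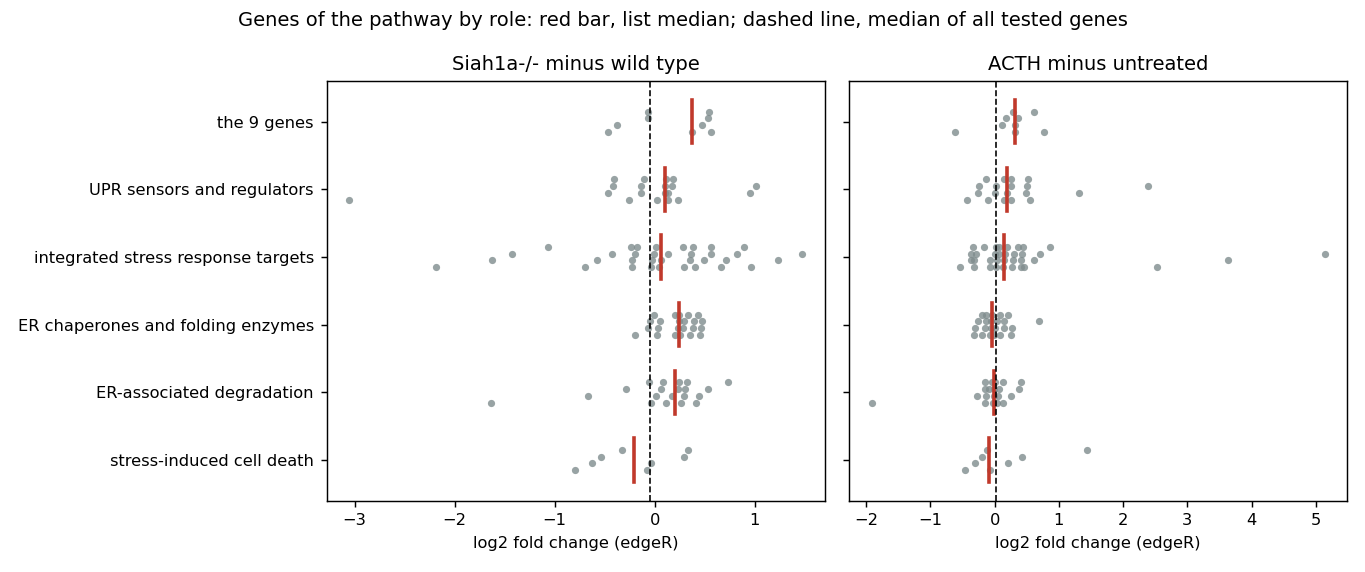
log2 fold changes (x axis) of single genes (points) in the 9 genes and the 5 pathway lists (rows), for Siah1a-/- minus wild type (left) and ACTH minus untreated (right). The red bar is the median of a list and the dashed line the median of all genes tested, -0.04 (left) and 0.02 (right). In the left panel the chaperone list has 19 of 23 genes above 0, and its median is 0.24.

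Markers of other cells and states are given beside these levels, and 0 genes of any marker list passed in either average. The summed 6 immediate early genes, which respond within minutes to many stimuli, reached 1023 to 2556 CPM in Siah1a-/- glands and 380.3 to 816 CPM in wild-type glands. Nr4a1 made up most of each sum, at 694 to 1882 CPM in Siah1a-/- and 241 to 632 CPM in wild type. Nr4a1, Fos, Junb and Dusp1 were higher in Siah1a-/- without overlap, as were 4.21% of all genes tested. Egr1 and Ier2 overlapped between the genotypes. The 3 highest sums were those of both ACTH-treated Siah1a-/- glands and the untreated Siah1a-/- gland labelled male, which also held the 3 highest levels of Hspa5 and of Hsp90b1. Chromaffin markers of the adrenal medulla summed to 1800.0 to 7369 CPM in Siah1a-/- and 1997 to 3991 CPM in wild type, with overlap. The 2 X-zone markers Akr1c18 and Pik3c2g, of the inner cortical zone next to the medulla, summed to 134 to 7323 CPM in Siah1a-/- and 3390.0 to 9824 CPM in wild type. Their 3 lowest sums, 134 and 626 CPM in ACTH-treated and 1134 CPM in untreated Siah1a-/- glands, were in the same 3 libraries that held the highest Hspa5 and Hsp90b1. Akr1c18 made up most of each sum. The sums of 134 and 1134 CPM were in Siah1a-/- glands labelled male, while the untreated wild-type library labelled male had female-like sex transcripts. The part of sex in these sums was not tested. The 5 adipocyte markers summed to 2401 to 4811 CPM in ACTH-treated glands and 1610.0 to 2653 CPM in untreated glands, with a median log2 fold change of 0.60 for ACTH. The 4 plasma cell markers tested, for a cell type rich in Xbp1 and ER chaperones, summed to 22.6 to 32.1 CPM in Siah1a-/- and 16.7 to 121 CPM in wild type. The highest was the library with liver transcripts, where Sdc1 made up 117 CPM and Mzb1 stood at 0.229 CPM. The part of any of these in the levels of the 9 genes was not tested.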

How the data were processed

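RNA of whole adrenal glands was sequenced as single reads of 75 bases from directional libraries, per the labels' protocols. The submitters' processing notes name FastQC (0.11), TopHat2 (2.0.13), Bowtie2 (2.2.5.0), Partek (6.6) and mm10, and give no order or settings. The authors deposited an estimated count and an RPKM value for each of 28678 RefSeq transcripts, per the file headers. The strand setting and the treatment of reads with several matches are not stated in the labels or headers.

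Deposited estimated counts were summed per symbol and rounded to whole numbers. edgeR (4.0.16, R 4.3.3) was run with filterByExpr (minimum count 10; 15361 genes kept, 3485 dropped), TMM scaling and quasi-likelihood F-tests on all 8 libraries, with genotype, treatment and sex label as terms (4 residual degrees of freedom) or with an added interaction (3). Calls needed a p under 0.05 after Benjamini-Hochberg adjustment over all genes tested, and standard errors come from the F statistic. Transcript shares were compared by exact permutation over libraries. Lengths came from the deposited counts and RPKM, calibrated on 33 genes. All 9 members are named; from each list the 3 most abundant genes are named where none was called, and the most alike genes by Pearson's r. One gene that this rule names is not reported here. The members, lists and alternatives were chosen with earlier results of these data known. Alternatives were RLE factors, no filter, DESeq2 (1.42.0), limma-voom and limma-trend on log2(RPKM + 1) (limma 3.58.1), other covariates, the most abundant transcript alone, and libraries left out. The code was tested on simulated data. Each group has 2 animals, so p-values rest on few animals and on a spread shared by all groups, and intervals cover counting error only.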

Additional observations from a re-analysis of the deposited data

Results flagged for a closer look

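The Xbp1 and Atf4 transcript shares were flagged because of the side on which the ACTH-treated libraries lay. Every ACTH-treated library lay below its untreated partners in Siah1a-/- and above them in wild type. How many of the 5323 symbols with more than 1 transcript do the same was not counted, so the pattern has no background share. For the shorter Xbp1 form, the ACTH difference was -5.38 percentage points in Siah1a-/- and 12.9 points in wild type, a gap of -18.26 points. The Siah1a-/- difference was -1.62 points without the untreated gland labelled male and -9.13 points without the untreated gland labelled female. For the minor Atf4 transcript it was -1.08 points in Siah1a-/- (0.623% after ACTH, 1.71% untreated) and 0.978 points in wild type (1.48% after ACTH, 0.499% untreated), a gap of -2.062 points. In 2 libraries this transcript was near 0, at 0.0157% of Atf4 counts each. Without the ACTH-treated Siah1a-/- gland labelled male, one of them, the Siah1a-/- difference was -0.477 points, and without the one labelled female it was -1.69 points. Without the untreated wild-type library labelled male, the other, the wild-type difference was 0.494 points. Neither difference between genotypes was tested. Both rest on 2 animals per group, and 1 of the 2 libraries in each wild-type group is the one with kidney or liver transcripts.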

How the results depend on the processing

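No paired analysis was possible because the labels give the groups no shared replicate numbers. The sex label was a covariate instead. It was kept for the untreated wild-type library labelled male, whose Xist and Ddx3y levels were like those of the libraries labelled female. Calls depended on the test. DESeq2 called 2 members by genotype and 1 each for ACTH, for genotype after ACTH and for ACTH in Siah1a-/-, against 0 in edgeR and in every other alternative run, each library left out included. Over all genes, edgeR called 4 by genotype, 3 by ACTH and 1 by genotype after ACTH, and 0 in the other 4 comparisons. Other settings gave for genotype 932 (DESeq2), 108 (limma-voom), 41 (no filter) and 0 to 190 with a library left out. For ACTH they gave 123 (DESeq2), 8 (no filter) and 0 to 19. For genotype after ACTH they gave 485 (DESeq2) and 0 to 173, for genotype in untreated glands 111 and 0 to 95, for ACTH in Siah1a-/- 98 and 0 with any library left out, for ACTH in wild type 37 and 0 to 70, and for the interaction 8 and 0 to 11. Without the 2 wild-type libraries, ACTH in Siah1a-/- and the interaction had 2 each, genotype after ACTH 21, genotype 2 and ACTH 0. The 4 libraries of a comparison alone gave 27 (genotype, untreated), 26 (genotype after ACTH) and 1 (ACTH in Siah1a-/-).

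The log2 fold changes of members were compared for the genotype average, the ACTH average and the interaction. Of these, 393 kept sign and side of the threshold, 3 passed it and 36 reversed. The comparisons split by treatment or genotype are not in these counts. Reversals were Ddit3 by genotype with limma-voom (0.018) or its main transcript (0.22), Herpud1 by genotype with limma-voom (0.056), and the Herpud1 interaction with limma-voom (-0.024). Without the 2 wild-type libraries they were Herpud1 by genotype (0.48), Sesn2 by ACTH (-0.018) and the interactions of Xbp1 (0.60), Hspa5 (0.55) and Herpud1 (-0.40). Leaving out single libraries gave by genotype -0.33 to 0.15 (Ddit3) and -0.29 to 0.31 (Herpud1). By ACTH it gave -0.010 to 0.24 (Hsp90b1) and -0.15 to 0.50 (Sesn2). For the interaction it gave -0.61 to 0.28 (Xbp1), -0.63 to 0.22 (Hspa5), -0.27 to 0.38 (Hsp90b1), -0.47 to 0.89 (Trib3), -0.061 to 0.40 (Asns), -0.48 to 1.16 (Sesn2) and -0.69 to 0.91 (Herpud1).

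Transcript shares reversed 19 times of 80. Without the 2 libraries the ACTH differences were -1.07 points for Xbp1, 1.08 for Hspa5 and 20.5 for Ddit3, and the genotype difference of Ddit3 was 9.32 (added after seeing the data). With single libraries left out, Atf4 ran from -0.147 to 0.560 by genotype and -0.416 to 0.291 by ACTH, Ddit3 from -29.4 to 10.2 and -23.9 to 15.7, and Hspa5 by ACTH from -2.56 to 1.57; Xbp1 ran from -12.0 to -5.89 by genotype and 0.0653 to 7.16 by ACTH. The cause was not tested. With 2 animals per group and 18 to 81 counts, Trib3 had the least depth.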

Other observations

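Beyond the most abundant genes of each list, several single genes of the pathways stood apart and are named after their values were seen. Ppp1r15a (GADD34), the stress-induced partner of the eIF2α phosphatase, was at 127 and 85.4 CPM in ACTH-treated Siah1a-/- glands, against 45.0 and 39.6 CPM in ACTH-treated wild-type glands, and at 51.0 and 20.6 CPM in untreated Siah1a-/- glands, against 17.1 and 23.7 CPM in untreated wild-type glands. Its log2 fold change was 1.01 for genotype (SE 0.30, edgeR adjusted p = 0.219) and 1.31 for ACTH (SE 0.30, edgeR adjusted p = 0.627). Atf3, a stress-induced partner of ATF4 and itself an immediate early gene, was at 32.2 and 31.4 CPM in ACTH-treated Siah1a-/- and 16.2 and 14.5 CPM in ACTH-treated wild-type glands. Untreated glands held 5.12 and 1.79 CPM in Siah1a-/- and 0.0 and 1.64 CPM in wild type. All 4 ACTH-treated glands lay above all 4 untreated ones, as for 2.1% of all genes tested (log2 fold change 3.63, SE 0.85, edgeR adjusted p = 0.631).

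Creb3, an ER-anchored transcription factor, stood at 139.9 to 208 CPM in Siah1a-/- glands and 75.7 to 108 CPM in wild-type glands (log2 fold change 0.95, edgeR adjusted p = 0.0997). Ddit4 (REDD1), which restrains mTORC1, averaged 93.4 ± 17.1 CPM in Siah1a-/- and 50.4 ± 6.09 CPM in wild type (SD, n = 4 each; edgeR adjusted p = 0.123). Vimp, a selenoprotein of ER-associated degradation, averaged 169.7 ± 23.5 CPM in Siah1a-/- and 102 ± 10.2 CPM in wild type (SD, n = 4 each; edgeR adjusted p = 0.145). For Creb3, Ddit4 and Vimp all 4 Siah1a-/- libraries lay above all 4 wild-type ones, as for 4.21% of all genes tested. Gpt2, a mitochondrial transaminase induced by ATF4, was at 18.8 to 54.8 CPM in Siah1a-/- and 101.1 to 179 CPM in wild type (log2 fold change -2.19, edgeR adjusted p = 0.0796). Gadd45a, a stress-induced growth arrest gene, was at 6.33 to 12.6 CPM in Siah1a-/- and 16.5 to 44.7 CPM in wild type (log2 fold change -1.62, edgeR adjusted p = 0.160). Edem1, which targets misfolded glycoproteins for degradation, was at 89.1 to 100.7 CPM in Siah1a-/- and 119 to 205 CPM in wild type (log2 fold change -0.66, edgeR adjusted p = 0.157). The highest values of Gpt2 and Edem1 were in the wild-type library with liver transcripts, and that of Gadd45a in the one with kidney transcripts. Gpt2, Gadd45a and Edem1 each had an unadjusted p under 0.05 in edgeR, where 8.11% of all genes tested were lower. The share of all genes lower without overlap is not given, nor a fold change without those libraries. Creb3l3, a liver transcription factor, was at 77.7 CPM in the wild-type library with liver transcripts and at most 4.94 CPM elsewhere.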
